A study of Mus musculus with 6 samples.

Results

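The gene set described here comprised 30 genes of enteric neurons, taken by name from the 24517 genes listed for the colon libraries. They were chosen as genes of neuronal identity, cytoskeleton, vesicles and receptors, and all 30 were listed and passed the filter on low counts. By role the set held 5 identity genes, 8 axon and cytoskeleton genes, 7 vesicle and secretory granule genes, 5 genes for sodium channels, nicotinic receptors and a peptide, and 5 genes for trophic factor receptors and adhesion molecules.

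Enteric neurons lie in ganglia within the gut wall, the myenteric plexus between the muscle layers and the submucosal plexus beneath the mucosa, and they drive motility, secretion and local blood flow through reflex circuits of sensory neurons, interneurons and motor neurons. They arise from neural crest cells that colonise the gut under the control of RET and its ligands, and most fast transmission between them runs through nicotinic acetylcholine receptors. In RNA from a piece of colon their transcripts are diluted by those of epithelium, muscle and immune cells.

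To examine the colon transcriptome after intestinal loss of NSD2, a methyltransferase of histone H3 lysine 36, RNA was sequenced from colon of 3 NSD2fl/fl and 3 NSD2∆IE mice. All animals of both groups were fed HFCD, a diet rich in fat and cholesterol. The labels give 16 weeks of feeding, whereas the methods of the study give a different duration, and no group on normal diet was analysed here. In NSD2fl/fl mice, the controls, Nsd2 was flanked by loxP sites but intact. NSD2∆IE mice lacked NSD2 where Villin-Cre is active, that is in the intestinal epithelium, so neurons, glia and muscle of these mice kept the gene by design. Both lines were on the C57BL/6J background, the labels gave no age or sex, and nothing in them said which part or which layers of the colon each piece held.

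Library totals were 38041832 to 38604680 counts, so 3 counts corresponded to 0.0777 to 0.0789 CPM (counts relative to the library total). Nsd2 was at 2.88, 3.25 and 3.84 FPKM in NSD2fl/fl and at 1.5, 1.41 and 1.76 FPKM in NSD2∆IE, without overlap. The fitted log2 difference was -1.23 (SE 0.159, unadjusted p 0.000133, adjusted p 0.302, edgeR's quasi-likelihood test). The Wald test of DESeq2 gave Nsd2 an adjusted p of 3.88e-07. Counts of Uty, Kdm5d, Ddx3y and Eif2s3y, all 4 Y-linked, summed to 6110, 5208 and 5058 counts in NSD2fl/fl and to 0, 0 and 1 counts in NSD2∆IE, and Xist was at 30.7 to 35.1 FPKM in NSD2∆IE and at most 0.00587 FPKM in NSD2fl/fl. The methods describe male littermates, but the libraries labelled NSD2∆IE carried the female pattern, so genotype and sex cannot be told apart in any result below. Along the first principal component of all genes, which took up 51% of the variance, replicates 1 and 3 of NSD2fl/fl and replicate 1 of NSD2∆IE stood apart from NSD2fl/fl replicate 2 and NSD2∆IE replicates 2 and 3, and the members are therefore also given within each of these sets.

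Upstream sequences of members were examined because most of these genes varied together between libraries. Of the 30 members, 20 matched by symbol in a RefSeq table of sequences from 250 bases before to 50 bases after transcript starts (build GRCm38.p6). No entry was used for Gfra2, Nefm, Ret, Scn3a, Nefl, Stmn2, Gap43, Kif5a, Ncam1 and Snap25. The 250 upstream bases of 3 members whose window held no annotated exon are printed 5′ to 3′ on the gene's strand, with capitals marking the GC box GGGCGG on either strand. Phox2a lies at chr7:101818063-101818312 on the plus strand, Stmn3 at chr2:181314501-181314750 on the minus strand and Chrna3 at chr9:55026563-55026812 on the minus strand.
Phox2a: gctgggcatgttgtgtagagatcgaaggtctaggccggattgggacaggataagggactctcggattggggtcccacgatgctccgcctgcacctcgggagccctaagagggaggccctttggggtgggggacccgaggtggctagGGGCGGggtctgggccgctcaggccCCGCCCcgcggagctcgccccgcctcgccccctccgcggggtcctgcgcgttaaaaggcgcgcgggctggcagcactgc
Stmn3: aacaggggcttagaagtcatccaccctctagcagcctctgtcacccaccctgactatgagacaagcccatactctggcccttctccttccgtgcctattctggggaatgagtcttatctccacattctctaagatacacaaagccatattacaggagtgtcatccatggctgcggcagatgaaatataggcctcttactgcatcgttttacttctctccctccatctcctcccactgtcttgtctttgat
Chrna3: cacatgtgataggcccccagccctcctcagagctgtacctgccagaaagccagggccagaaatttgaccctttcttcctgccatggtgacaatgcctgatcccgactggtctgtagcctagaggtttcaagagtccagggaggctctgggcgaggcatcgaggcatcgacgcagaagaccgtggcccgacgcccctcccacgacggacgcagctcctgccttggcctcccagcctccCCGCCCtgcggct

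Phox2a held the GC box at 2 places, starting 104 and 79 bases before the start, and Chrna3 held it at 1, starting 13 bases before the start. In Stmn3 none of the 5 motifs searched was found. Over both strands of the whole windows the GC box occurred in 13 of 20 members (65%) and in 38.2% of 27025 genes. The members' windows were also richer in G and C, with a median of 61% against 53.3%, and held a median of 18 CpG dinucleotides against 8, and the part of base composition in the difference was not tested. The E box CAGCTG, a form bound by neurogenic bHLH factors, occurred in 6 of 20 members (30%) and in 18.3% of all genes. Parts of the RE1 element, through which the repressor REST silences neuronal genes outside neurons, were rare, with TCAGCACC in 2 members (10% against 1.85%) and GGACAGC in 3 members (15% against 7.59%).

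The cAMP response element TGACGTCA, a palindrome bound by CREB, occurred in 2 of 20 members (10%) and in 2.03% of all genes. These were Cartpt and Scg2, which encode a neuropeptide and a granule protein, and it is shown in capitals within 30 bases of each. In Cartpt the stretch lies at chr13:99900777-99900806 and the element starts 112 bases before the start, which is an internal transcript start within the annotated gene (chr13:99898483-99910179). In Scg2 the stretch lies at chr1:79440076-79440105 and the element starts 68 bases before the start. Both genes lie on the minus strand, and both stretches lie within an exon of a longer transcript of the same gene in GENCODE.
Cartpt: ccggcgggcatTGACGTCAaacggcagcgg
Scg2: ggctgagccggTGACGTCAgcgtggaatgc
A match of letters is a description of the window and not a binding site, and farther upstream in the Cartpt window a GC box overlapped the GGACAGC part of RE1.

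The members spanned a wide range of levels. By FPKM, which corrects for gene length, 7 members had a mean under 1 over the 6 libraries, 12 lay between 1 and 5 and 11 were at 5 or more. The highest and the lowest mean differed 227-fold. Uchl1, L1cam and Stmn2 had the highest means, and Scn9a and Scn3a, both for voltage-gated sodium channel subunits, had the lowest.

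**Figure D1:**
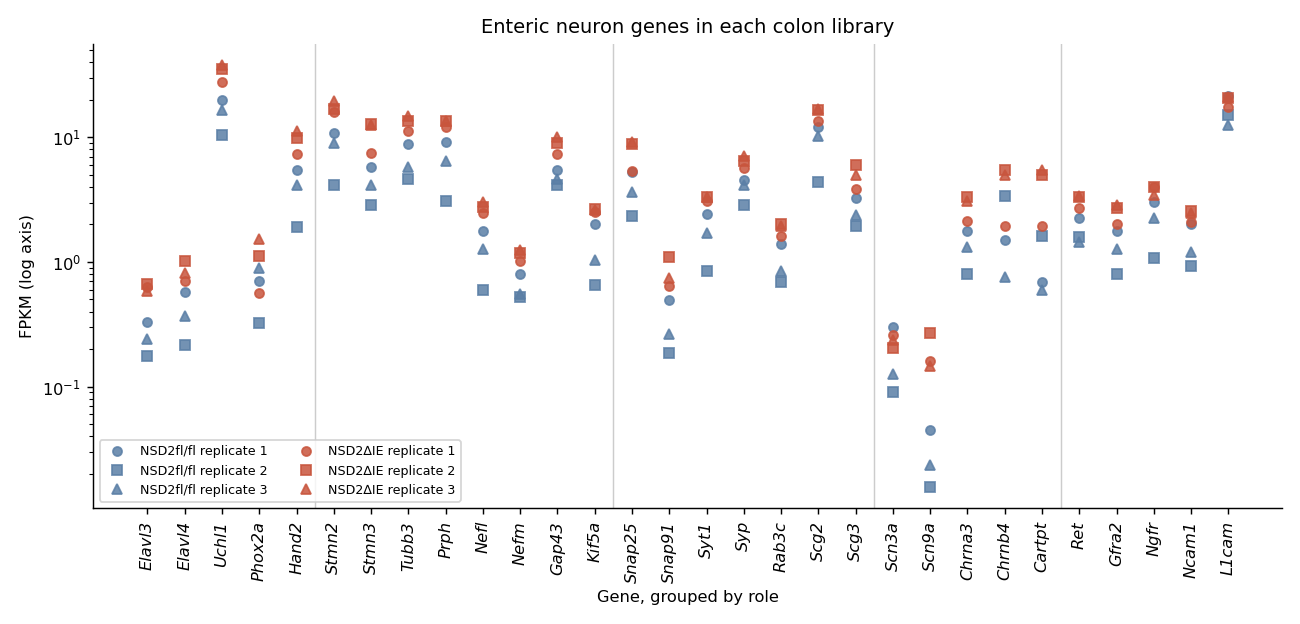
FPKM of each of the 30 genes in each library on a log axis, grouped by role from left to right (identity, axon and cytoskeleton, vesicle and granule, channels and receptors with Cartpt, trophic receptors and adhesion). Blue marks are the 3 NSD2fl/fl libraries and red marks the 3 NSD2∆IE libraries, with the shape giving the replicate. Red marks lie above blue marks for most genes, NSD2fl/fl replicate 2 (blue square) is usually lowest, and values run from 0.0156 to 38.1 FPKM.

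All 30 fitted log2 fold changes lay above 0, that is toward NSD2∆IE, with a median of 0.93 against -0.04 over the 16347 genes tested. The study called genes at a p under 0.05 without adjustment and a minimal change, which on the log2 scale is 0.32. At that threshold 24 of 30 members were higher in NSD2∆IE, where 8.05% of all genes tested were. None of the 30 was lower, where 2.21% of all genes were. At an unadjusted p under 0.05 in either direction there were again 24 members against 11.1% of all genes. Adjusted over all genes in edgeR's quasi-likelihood test, 0 members had a p under 0.05 (0.0306% of all genes, which were Xist and the 4 Y-linked genes), and the members' adjusted p-values ran from 0.302 to 0.790. With the Wald test of DESeq2, 9 members had an adjusted p under 0.05 and were higher, against 2.47% of all genes.

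In TMM-scaled CPM all 3 NSD2∆IE libraries lay above all 3 NSD2fl/fl libraries for 25 of 30 members, against 11.4% of all genes, and the opposite held for 0 members, against 7.28% of all genes. With 3 libraries in each group an exact two-sided permutation test of a single gene cannot go below a p of 0.1. The count of 24 rested in part on single libraries and was 14 without NSD2fl/fl replicate 3, 15 without NSD2∆IE replicate 2 and 15 without NSD2∆IE replicate 3. In each of the 6 fits that left out 1 library, 12 members passed the threshold, and these were Elavl3, Uchl1, Hand2, Stmn2, Stmn3, Tubb3, Gap43, Scg3, Scn9a, Chrna3, Cartpt and Ret. Reads were counted with strand use not given in the sources used here, and 8 members share exonic bases with a gene on the other strand (Uchl1, Phox2a, Hand2, Nefl, Nefm, Syp, Scn9a and Ncam1), so part of their reads may belong to the partner.

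**Figure D2:**
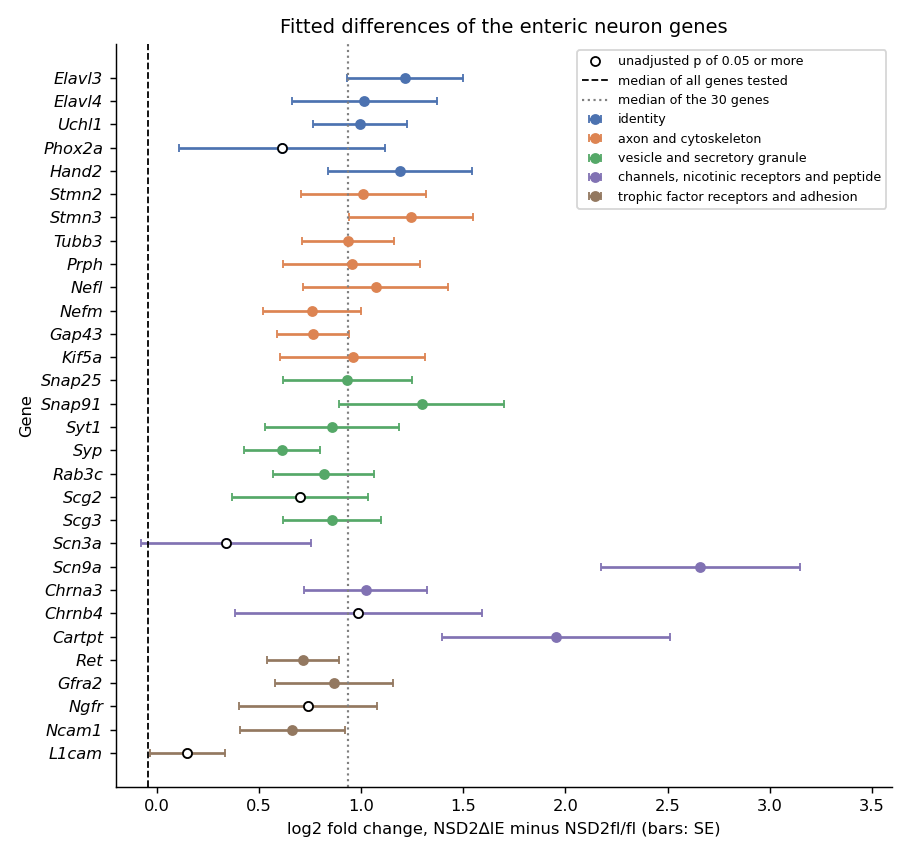
Fitted log2 fold change of each gene, NSD2∆IE minus NSD2fl/fl, with its standard error as a bar and colours for the 5 roles. Open circles mark the 6 genes with an unadjusted p of 0.05 or more, the dashed line the median of all genes tested (-0.04) and the dotted line the median of the 30 genes (0.93). Every point lies right of 0, with Scn9a and Cartpt farthest to the right and L1cam nearest to 0.

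Among the identity genes, 4 of 5 passed the study's threshold as higher (8.05% of all genes tested), with a median log2 fold change of 1.02. Uchl1, the abundant neuronal ubiquitin hydrolase known as PGP9.5 that is used to stain enteric ganglia, was at 20.1, 10.4 and 16.5 FPKM in NSD2fl/fl and at 28.0, 35.8 and 38.1 FPKM in NSD2∆IE. The groups did not overlap, and replicate 2 of NSD2fl/fl gave the lowest value. The log2 fold change of Uchl1 was 1.00 (SE 0.230, unadjusted p 0.00367, adjusted p 0.302). Uchl1 shares 295 of 1632 exonic bases with an antisense gene, Uchl1os. Uchl1 is also made by some endocrine cells.

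Elavl3, one of the Hu RNA-binding proteins restricted to neurons, was at 0.332, 0.177 and 0.240 FPKM in NSD2fl/fl and at 0.635, 0.664 and 0.586 FPKM in NSD2∆IE. All 3 NSD2∆IE values lay above the highest NSD2fl/fl value and close to each other. The log2 fold change of Elavl3 was 1.22 (SE 0.285, unadjusted p 0.00399, adjusted p 0.302). Elavl4, its close relative, was at 0.216 to 0.575 FPKM in NSD2fl/fl and at 0.701 to 1.02 FPKM in NSD2∆IE, higher without overlap by a log2 fold change of 1.02 (SE 0.356, unadjusted p 0.0252).

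Hand2, a transcription factor needed for the differentiation of enteric neurons, was at 5.45, 1.92 and 4.14 FPKM in NSD2fl/fl and at 7.30, 9.84 and 11.3 FPKM in NSD2∆IE, again without overlap. Its log2 fold change was 1.19 (SE 0.353, unadjusted p 0.0124, adjusted p 0.321). Hand2 is not a marker of neurons alone in the gut, since smooth muscle and mesenchyme also express it, and 461 of its 2351 exonic bases are shared with Hand2os1. Phox2a, a homeodomain factor of autonomic neurons, was the identity gene that did not pass, at 0.324 to 0.898 FPKM in NSD2fl/fl and 0.564 to 1.54 FPKM in NSD2∆IE. The groups of Phox2a overlapped and its log2 fold change was 0.61 (SE 0.502, unadjusted p 0.263).

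All 8 axon and cytoskeleton genes passed the study's threshold and were higher without overlap (8.05% and 11.4% of all genes tested). Their log2 fold changes ran from 0.76 to 1.24. Stmn2 and Stmn3 encode stathmins, which regulate microtubules in growing and mature axons. Stmn2 was at 10.8, 4.18 and 9.0 FPKM in NSD2fl/fl and at 16.0, 16.9 and 19.5 FPKM in NSD2∆IE. Stmn3 was at 5.76, 2.85 and 4.19 FPKM in NSD2fl/fl and at 7.45, 12.8 and 12.6 FPKM in NSD2∆IE. In both, NSD2fl/fl replicate 2 was lowest and NSD2∆IE replicate 1 was the lowest of its own group. Their log2 fold changes were 1.01 (SE 0.306, unadjusted p 0.0136, adjusted p 0.326) and 1.24 (SE 0.305, unadjusted p 0.00499, adjusted p 0.302).

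Tubb3, the neuronal class of beta-tubulin, was at 8.83, 4.61 and 5.80 FPKM in NSD2fl/fl and at 11.3, 13.6 and 14.9 FPKM in NSD2∆IE. Gap43, a membrane protein of growth cones and nerve endings, was at 5.52, 4.14 and 4.61 FPKM in NSD2fl/fl and at 7.35, 8.96 and 10.2 FPKM in NSD2∆IE. Gap43 varied least among the NSD2fl/fl libraries of the 8 genes relative to its mean, whereas Tubb3 shared the low value of replicate 2. The log2 fold change of Tubb3 was 0.94 (SE 0.227, unadjusted p 0.00472) and that of Gap43 was 0.76 (SE 0.175, unadjusted p 0.00357), both with an adjusted p of 0.302.

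The intermediate filament genes, which give axons their calibre, were higher as well. Prph was at 3.10 to 9.26 FPKM in NSD2fl/fl and 12.1 to 13.7 FPKM in NSD2∆IE, Nefl at 0.595 to 1.78 and 2.49 to 3.06 FPKM, and Nefm at 0.525 to 0.798 and 1.02 to 1.2 FPKM. In all 3 the NSD2∆IE libraries lay close together and NSD2fl/fl replicate 2 was lowest. Prph, the filament of peripheral neurons, had a log2 fold change of 0.95 (SE 0.335, unadjusted p 0.0256), Nefl of 1.07 (SE 0.355, unadjusted p 0.0202) and Nefm of 0.76 (SE 0.239, unadjusted p 0.0160). Nefl and Nefm, the light and medium neurofilament chains, are neighbours on chromosome 14 and share 1108 exonic bases on opposite strands. Since strand use of the counting is not given, their counts may not be fully separate measurements. Kif5a, the kinesin heavy chain that carries cargo along axons, was at 0.649 to 2.03 FPKM in NSD2fl/fl and 2.52 to 2.66 FPKM in NSD2∆IE. It had a log2 fold change of 0.96 (SE 0.355, unadjusted p 0.0315) and stayed past the threshold in 2 of 6 fits that left out a library.

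Among the vesicle and granule genes 6 of 7 passed the study's threshold as higher (8.05% of all genes tested). Scg3, a granin-family protein of dense-core granules in neurons and endocrine cells, was at 3.26, 1.95 and 2.38 FPKM in NSD2fl/fl and at 3.85, 6.02 and 5.03 FPKM in NSD2∆IE. Its groups did not overlap, and its log2 fold change was 0.86 (SE 0.240, unadjusted p 0.00956, adjusted p 0.312). Scg2, secretogranin II, was the most abundant of the 7 and did not pass, at 4.36 to 12.2 FPKM in NSD2fl/fl and 13.6 to 17.0 FPKM in NSD2∆IE. The log2 fold change of Scg2 was 0.70 (SE 0.332, unadjusted p 0.0738) although its groups did not overlap.

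The genes of synaptic vesicle fusion gave log2 fold changes between those of Syp and Snap91. Syp, the vesicle membrane protein synaptophysin, had the smallest, 0.61 (SE 0.186, unadjusted p 0.0137), and lies on the X chromosome. Snap91, a clathrin adaptor of vesicle recycling, had the largest, 1.30 (SE 0.402, unadjusted p 0.0152). Syp was at 2.88 to 4.53 FPKM in NSD2fl/fl and 5.68 to 7.11 FPKM in NSD2∆IE, and Snap91 at 0.186 to 0.491 and 0.637 to 1.10 FPKM. Between them lay Syt1, the calcium sensor of release, at 0.86 (SE 0.329), Rab3c, a vesicle GTPase, at 0.82 (SE 0.248), and Snap25, the plasma membrane SNARE protein, at 0.93 (SE 0.315). The NSD2∆IE values of Syt1 (3.10 to 3.32 FPKM) and Rab3c (1.61 to 2.01 FPKM) lay above their NSD2fl/fl values (0.844 to 2.43 and 0.689 to 1.39 FPKM). Snap25 is the 1 member that passed the threshold with overlapping groups in TMM-scaled CPM, at 13.8 CPM in NSD2fl/fl replicate 1 and 13.6 CPM in NSD2∆IE replicate 1.

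The channel, receptor and peptide genes were the most uneven group, with 3 of 5 past the study's threshold (8.05% of all genes tested). Scn9a, the voltage-gated sodium channel Nav1.7 of peripheral sensory and autonomic neurons, was at 0.0444, 0.0156 and 0.0235 FPKM in NSD2fl/fl and at 0.160, 0.268 and 0.145 FPKM in NSD2∆IE. These rest on 17, 6 and 9 counts against 62, 104 and 56 counts, and the groups did not overlap. Its log2 fold change of 2.66 (SE 0.486, unadjusted p 0.00103, adjusted p 0.302) was the largest of the 30 and had the smallest p, and Scn9a shares 180 of 12772 exonic bases with a gene on the other strand. Scn3a, a sodium channel subunit encoded nearby on chromosome 2, was at 0.0902 to 0.298 FPKM in NSD2fl/fl and at 0.203 to 0.257 FPKM in NSD2∆IE. The groups of Scn3a overlapped, with NSD2fl/fl replicate 1 highest of all, and the log2 fold change was 0.34 (SE 0.416, unadjusted p 0.443). The difference between the changes of Scn9a and Scn3a was not tested.

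Chrna3 and Chrnb4 encode the alpha3 and beta4 subunits that together form the main ganglionic nicotinic receptor, and their genes lie on chromosome 9 with 1591 bases between them (chr9:55010117-55026562 and chr9:55028154-55048953). Chrna3 was at 1.76, 0.804 and 1.32 FPKM in NSD2fl/fl and at 2.12, 3.32 and 3.10 FPKM in NSD2∆IE. Chrnb4, given per library because its pattern was seen to differ, was at 1.5, 3.37 and 0.764 FPKM in NSD2fl/fl and at 1.93, 5.49 and 4.95 FPKM in NSD2∆IE. NSD2fl/fl replicate 2 was thus the lowest of its group for Chrna3 and the highest of its group for Chrnb4. Chrna3 was higher in NSD2∆IE by a log2 fold change of 1.02 (SE 0.300, unadjusted p 0.0118, adjusted p 0.318) without overlap. Chrnb4 had a similar log2 fold change of 0.99 with a wider error (SE 0.605, unadjusted p 0.148) and overlapping groups.

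Cartpt, which encodes the CART peptide found in enteric neurons and some endocrine cells, was at 0.691, 1.61 and 0.600 FPKM in NSD2fl/fl and at 1.96, 5.03 and 5.50 FPKM in NSD2∆IE. Its groups did not overlap, and NSD2fl/fl replicate 2 was again the highest of its group. The log2 fold change was 1.95 (SE 0.559, unadjusted p 0.0105, adjusted p 0.312), and the counts behind it were 23, 54 and 20 against 66, 170 and 185.

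**Figure D3:**
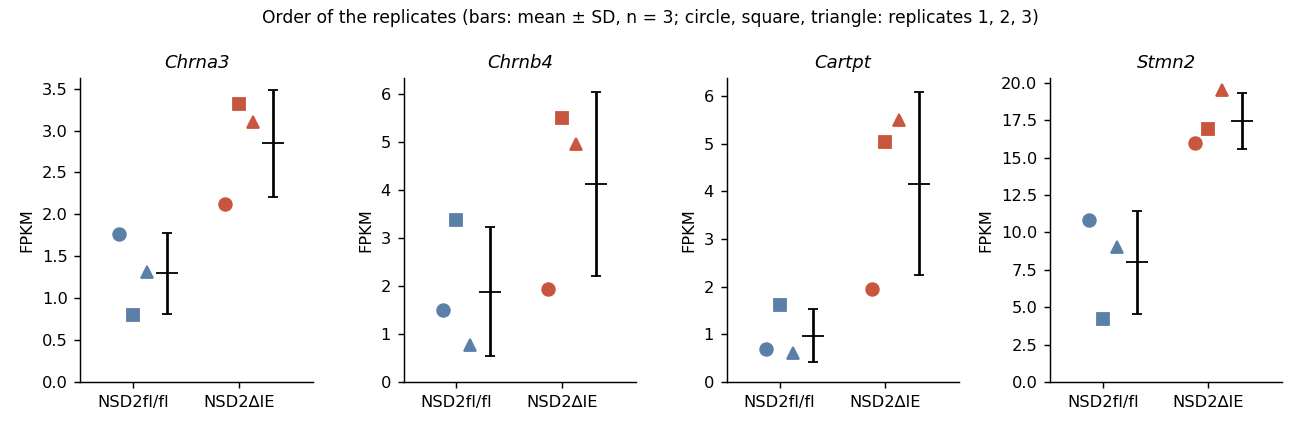
FPKM of Chrna3, Chrnb4, Cartpt and, as a typical member, Stmn2 in each library, with the group mean ± SD (n = 3) as a bar and the shape giving the replicate. In NSD2fl/fl, replicate 2 (square) is lowest for Chrna3 (0.804 FPKM) and Stmn2 (4.18 FPKM) and highest for Chrnb4 (3.37 FPKM) and Cartpt (1.61 FPKM).

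Among the trophic receptor and adhesion genes, 3 of 5 passed the study's threshold as higher (8.05% of all genes tested). Ret, the receptor tyrosine kinase on which enteric neuron survival depends, was at 2.25, 1.58 and 1.45 FPKM in NSD2fl/fl and at 2.71, 3.32 and 3.38 FPKM in NSD2∆IE. The groups did not overlap, and the log2 fold change of Ret was 0.72 (SE 0.176, unadjusted p 0.00505, adjusted p 0.302). Gfra2, the co-receptor through which neurturin activates RET, was at 0.801 to 1.76 FPKM in NSD2fl/fl and at 2.02 to 2.88 FPKM in NSD2∆IE, higher by a log2 fold change of 0.87 (SE 0.289, unadjusted p 0.0208). Ncam1, the neural cell adhesion molecule, was at 0.934 to 2.03 FPKM in NSD2fl/fl and at 2.10 to 2.58 FPKM in NSD2∆IE, higher by 0.66 on the log2 scale (SE 0.257, unadjusted p 0.0373) and kept its call in 1 of 6 fits that left out a library.

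The other members of this group did not pass. Ngfr, the neurotrophin receptor p75 of neural crest derivatives, was at 1.07 to 3.04 FPKM in NSD2fl/fl and at 3.47 to 4.03 FPKM in NSD2∆IE, with a log2 fold change of 0.74 (SE 0.338, unadjusted p 0.0657) and no overlap. L1cam, an adhesion molecule of growing axons encoded on the X chromosome, was at 21.6, 15.2 and 12.5 FPKM in NSD2fl/fl and at 17.5, 20.8 and 21.0 FPKM in NSD2∆IE. The highest of these 6 values belonged to NSD2fl/fl replicate 1, and the log2 fold change of L1cam was 0.15 (SE 0.184, unadjusted p 0.439). L1cam was thus among the 3 most abundant members by FPKM and had the smallest difference of the 30.

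The members varied together between libraries. Among the 3 NSD2fl/fl libraries, replicate 1 was highest for 27 of 30 members and replicate 2 lowest for 26, while among the NSD2∆IE libraries replicate 1 was lowest for 25. Over the 435 pairs of members the median Pearson correlation of log2 CPM across the 6 libraries was 0.92, and after subtraction of the group means it was 0.81. These values describe 6 shared libraries with common scaling and carry no test. Chrnb4 and Cartpt stood apart, with correlations of -0.25 and -0.27 between their deviations from the group means and the mean deviation of the other members.

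Within the sets separated by the first principal component, 29 of 30 members were higher in NSD2∆IE replicate 1 than in the mean of NSD2fl/fl replicates 1 and 3, by a median log2 difference of 0.52. Phox2a was the exception, at -0.55. All 30 were higher in the mean of NSD2∆IE replicates 2 and 3 than in NSD2fl/fl replicate 2, by a median of 1.62. Each of these sets holds 1 library of a group, so the within-set values carry no test.

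Other genes of neurons were counted from a list of 63, of which 62 were tested. At the study's threshold 26 were higher in NSD2∆IE and 0 lower (8.05% and 2.21% of all genes tested). Their median log2 fold change was 0.72. Among those with the smallest p were Thy1, a surface glycoprotein of neurons and other cells, with a log2 fold change of 0.70 (unadjusted p 0.000983), Chrna5, a nicotinic subunit of the same receptor cluster, with 1.82 (unadjusted p 0.00211), Eno2, the neuronal enolase, with 1.00 (unadjusted p 0.00233), and Nrcam, an axonal adhesion molecule, with 1.56 (unadjusted p 0.00237). Each of these had an adjusted p of 0.302 and no overlap between the groups. Chrna5 rests on 10, 8 and 10 counts in NSD2fl/fl and 26, 43 and 41 counts in NSD2∆IE. Its annotated span (chr9:54980827-55011420) overlaps that of Chrna3 (chr9:55010117-55026562). In GENCODE, however, Chrna3 shares 0 of 5265 exonic bases with a gene on the other strand. Whether reads of Chrna5 and Chrna3 were mixed in the counting was not tested. Of these 62 genes, 4 had a log2 fold change below 0, the lowest being -0.20.

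The ligands and receptors that keep enteric neurons alive were listed separately, and 11 of 15 were tested. Among the ligands, Nrtn (neurturin, the partner of Gfra2) was at 2.11, 0.978 and 1.78 FPKM in NSD2fl/fl and at 2.99, 3.93 and 4.60 FPKM in NSD2∆IE, with a log2 fold change of 1.12 (SE 0.325, unadjusted p 0.0113). Gdnf, the ligand for Ret with Gfra1, had a log2 fold change of 1.19 (SE 0.470, unadjusted p 0.0396) with overlapping groups. Artn, with 0.76 (unadjusted p 0.0240), also passed the study's threshold, whereas Ntf3 had 0.17 (unadjusted p 0.651).

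Among the trophic receptors Gfra1 passed, at 2.14, 0.981 and 1.13 FPKM in NSD2fl/fl and at 2.83, 4.01 and 3.76 FPKM in NSD2∆IE, with a log2 fold change of 1.21 (SE 0.293, unadjusted p 0.00471, adjusted p 0.302). Its groups did not overlap. The other receptors tested did not pass. Their log2 fold changes were 0.78 for Ntrk3 (SE 0.349), 0.49 for Gfra3 (SE 0.264), 0.91 for Gfra4 (SE 0.581), 1.00 for Ntrk2 (SE 1.40) and -0.26 for Sort1 (SE 0.173). No gene of the list was lower at the threshold.

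A list of transmitter and neuropeptide genes of the gut also held Calb2, which encodes a calcium-binding protein. Of its 14 genes that were tested, 3 were higher at the threshold (8.05% of all genes) and 0 lower, and 13 had a log2 fold change above 0. Penk, the enkephalin precursor, had a log2 fold change of 0.94 (SE 0.204, unadjusted p 0.00264), Tac1, the substance P precursor, of 0.57 (SE 0.193, unadjusted p 0.0220) and Calb2, calretinin, of 0.67 (SE 0.272, unadjusted p 0.0434). Chat, which makes acetylcholine, had 0.77 (unadjusted p 0.0522) and Nos1, which makes nitric oxide, had 1.15 (unadjusted p 0.0654), both without overlap. The median log2 fold change of these 14 genes was 0.62.

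Most smooth muscle markers and some markers of glia and adipocytes were higher in NSD2∆IE together with the members, whereas most markers of the other cells of the gut wall did not pass the threshold. In bulk tissue, more cells of a type and more RNA per cell cannot be told apart. The mean log2 CPM of the 30 members was 2.97, 2.12 and 2.56 in NSD2fl/fl and 3.31, 3.73 and 3.63 in NSD2∆IE. That of 12 smooth muscle markers was 7.87, 6.64 and 7.90 in NSD2fl/fl and 8.19, 8.67 and 9.25 in NSD2∆IE, with the lowest value in the same library. Of these 12, 11 passed the study's threshold as higher and 0 as lower (8.05% and 2.21% of all genes tested). Their median log2 fold change was 1.21.

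Markers of enteric glia, which envelop the neurons, had 5 of 10 tested markers higher and 0 lower (8.05% and 2.21% of all genes). Their median log2 fold change was 1.04. Their mean log2 CPM was 1.53 to 2.05 in NSD2fl/fl and 2.22 to 2.87 in NSD2∆IE. The most abundant genes of that list, Erbb3 and Entpd2, are also made by epithelium or mesenchyme, and had log2 fold changes of -0.41 and 0.03. Adipocyte markers had 3 of 6 tested higher, against 8.05% of all genes, and a median of 2.03. Their mean log2 CPM was -0.50 to 1.21 in NSD2fl/fl and 1.81 to 3.58 in NSD2∆IE.

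Differences between the member level and the level of another list were then taken within each library, on the log2 scale. The member level minus the smooth muscle level was -4.90, -4.52 and -5.34 in NSD2fl/fl and -4.88, -4.94 and -5.62 in NSD2∆IE, so the groups overlapped. The member level minus the glia level was 0.92, 0.59 and 0.90 in NSD2fl/fl and 1.08, 0.85 and 0.89 in NSD2∆IE, which also overlapped. Relative to the interstitial cell markers the groups did not overlap, at -3.15, -2.98 and -3.03 in NSD2fl/fl and -2.71, -2.05 and -2.17 in NSD2∆IE. That list held only 3 genes, and their log2 fold changes differed in sign, at 0.88 for Etv1, 0.14 for Kit and -0.38 for Ano1. Etv1 was thus near the members' median of 0.93 and had no overlap between the groups, whereas Kit and Ano1 were below that median and overlapped. The groups did not overlap relative to the epithelial markers either, at -6.70, -8.33 and -7.43 in NSD2fl/fl and -6.48, -6.05 and -6.06 in NSD2∆IE.

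Scaling the libraries to a marker list, an alternative added after the data were seen, shifts all genes of a library together, so signs and calls move with the shift. With smooth muscle markers the median log2 fold change of the members was -0.28, against -1.33 over all genes, a distance of 1.05. With glia markers it was 0.07, against -0.90 over all genes, a distance of 0.97. Under both scalings 1 member, Scn9a, passed the study's threshold as higher. The share of all genes passing under these scalings is not reported here, so this count cannot be called many or few.

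Among epithelial markers 0 of 10 were higher and 1 was lower (8.05% and 2.21% of all genes), with a median log2 fold change of -0.31. All 10 log2 fold changes were below 0, and 3 markers were lower without overlap (7.28% of all genes). Their mean log2 CPM was 9.67 to 10.45 in NSD2fl/fl and 9.70 to 9.79 in NSD2∆IE. In this mean the groups overlapped, with NSD2fl/fl replicate 1 lowest of all. NSD2fl/fl replicate 2, in which most members were lowest, had the highest epithelial level. Interstitial cell markers had 1 of 3 higher, fibroblast markers 2 of 7 and immune markers 0 of 6, with none lower, and no gene of any marker list was at 0 in all libraries. The part of tissue composition in the members' difference was not tested.

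Enteroendocrine cells, the hormone cells of the epithelium, share granins, SNARE proteins and peptides with neurons. Their markers had 1 of 14 higher and 1 lower (8.05% and 2.21% of all genes), with a median log2 fold change of 0.0026. Their mean log2 CPM was 3.21, 4.51 and 3.12 in NSD2fl/fl and 3.28, 4.39 and 4.05 in NSD2∆IE. NSD2fl/fl replicate 2 was the highest of its group and NSD2∆IE replicate 1 the lowest of its own, the same order as for Chrnb4. Scores on the first principal component of all genes had that order too, at -50.4, 55 and -55.2 in NSD2fl/fl and -34.9, 53 and 32.4 in NSD2∆IE. The part of enteroendocrine cells in the levels of Chrnb4 and Cartpt was not tested. Scaled to the enteroendocrine markers, Cartpt and Scn9a were the 2 members past the study's threshold, with the share of all genes under that scaling not reported here.

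**Figure D4:**
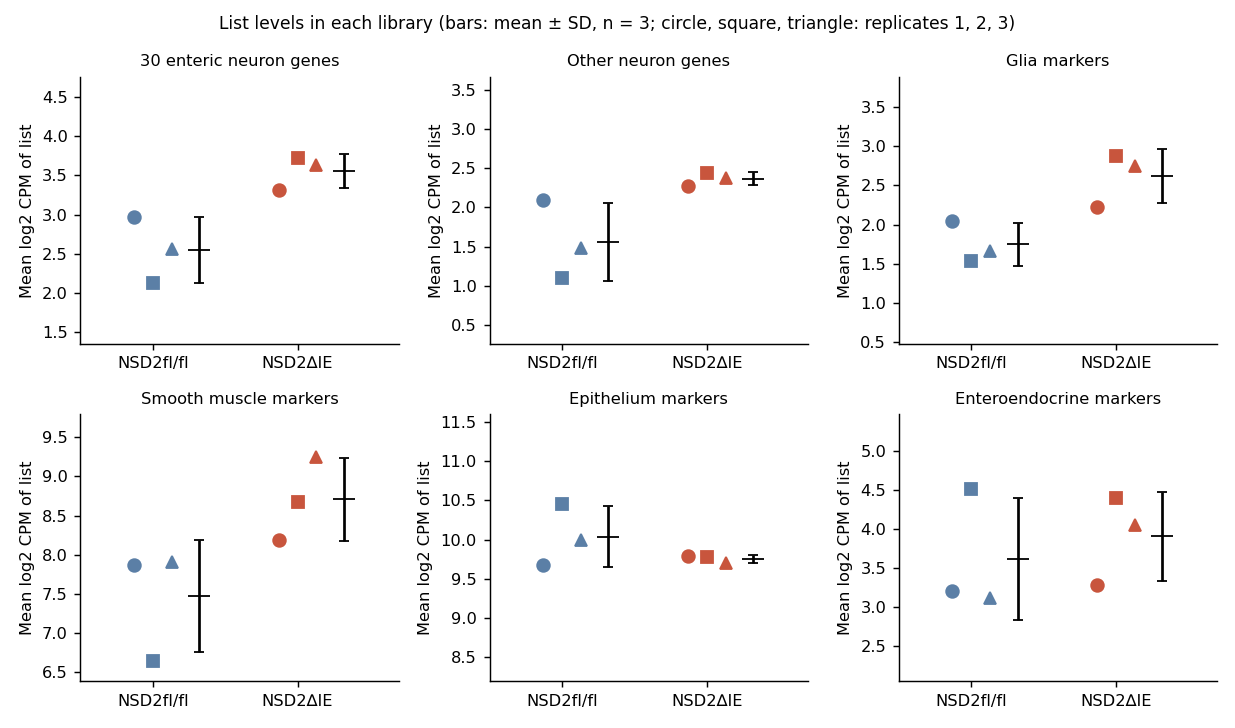
Mean log2 CPM of the 30 enteric neuron genes and of 5 other lists in each library, with the group mean ± SD (n = 3) as a bar, all panels on axes of the same length. The neuron, glia and smooth muscle levels are higher in every NSD2∆IE library than in every NSD2fl/fl library, epithelial levels lie within 9.67 to 10.45 with NSD2fl/fl replicate 2 highest, and enteroendocrine levels overlap.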

How the data were processed

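RNA of colon from 3 NSD2fl/fl and 3 NSD2∆IE mice was sequenced, and samples were grouped and numbered as the labels give them. The authors deposited whole-number read counts per gene. The authors also deposited FPKM values, which the counts, their totals and a fixed length per gene reproduced. The submitters' processing notes name fastp, HISAT2, HTSeq, R 3.2.0 and build mm10. Annotation and strand use are not given in the sources used here. Totals of 38041832 to 38604680 counts limited precision less than the spread between libraries did (biological coefficient of variation 0.311), except for genes of few counts such as Scn9a, with as few as 6, and floors in counts cover counting error only.

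Counts were fitted with edgeR 4.0.16 in R 4.3.3 (filterByExpr, TMM factors, glmQLFit and glmQLFTest, two-sided, Benjamini-Hochberg over all 16347 genes tested). Standard errors were derived from the F statistic and the fitted change. Library levels of a list are mean log2 CPM with a prior count of 2. The fit was tested on simulated data. Alternatives were DESeq2 1.42.0, limma 3.58.1 with voom or on log2(FPKM + 1) and log2(FPKM + 0.1), other scaling factors, no filter, a fold change over 1.5, a replicate block, the principal component split as a covariate, and fits without 1 library. The members and the lists were chosen with earlier results of these data known. All members were named. Values in every library were given for the 12 with the smallest p and the 3 with the highest mean FPKM, and for Chrnb4 after its values were seen. Of other lists, the 5 genes with the smallest p (neurons, transmitters), all tested trophic genes and the 2 most abundant glia markers were named. For 2 genes so chosen no values are reported here, but list counts include both. Gene positions and promoter sequences came from RefSeq tables of GRCm38.p6, and exons from GENCODE, both on the build of the counts.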

Additional observations from a re-analysis of the deposited data

How the results depend on the processing

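With edgeR, 0 members had an adjusted p under 0.05, and DESeq2 gave 9. The number of members higher at the study's threshold, 24, ranged from 14 to 27 over the fits without 1 library (14 without NSD2fl/fl replicate 3, 27 without NSD2fl/fl replicate 1), 15 without NSD2∆IE replicate 2 or 3. The numbers of members without overlap ranged from 25 to 28 and the median log2 fold change from 0.70 to 1.17 over these fits. With 1 library left out, absence of overlap is easier to reach than with every library in place. The share of all genes without overlap in these fits is not reported here. No member was lower at the threshold. The cause of the dependence on single libraries was not tested. With the replicate block, 26 members were higher, 0 had an adjusted p under 0.05 and the median was 0.96. Same-numbered deviations from the group means correlated at 0.501, 0.643 and -0.166. These few values cannot decide whether the replicate numbers pair the samples. Over the 16 alternatives named in the processing, 431 of 480 comparisons of single members kept direction and side of an unadjusted p of 0.05, 32 lost it, 17 gained it and 0 reversed. Among the other named genes, Ntf3 reversed, to -0.061 without NSD2fl/fl replicate 3, in a range up to 0.34 over the fits without 1 library.

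The scalings to marker levels were added after seeing the data, and by construction they shift every gene. The members' median became -0.28 with smooth muscle, 0.070 with glia and 0.40 with enteroendocrine markers, against -1.33, -0.90 and -0.37 over all genes. Members higher at the threshold fell to 1, 1 and 2, and those without overlap to 1, 2 and 3, in that order. Shares of all genes under these scalings are not reported here, so these counts stand without a background. With glia scaling 1 member, Scn9a, had an adjusted p under 0.05 in edgeR.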
